A study of Danio rerio with 2 samples.

Results

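The genes described here are 9 immediate early genes of zebrafish, fosab, junba, junbb, jun, atf3, egr1, egr2b, ier2 and dusp1, out of 22017 Ensembl gene identifiers with a read in either library. They were found by the protein name that the count tables give to each transcript, and the reads of all transcripts of a gene identifier were added up. All 9 had 10 or more reads in all and entered the tests. The 9 genes were chosen with earlier results of these data known, so setting them against all genes is a description. Immediate early genes are transcribed within minutes of a stimulus from transcription factors that are already present in the cell, without new protein synthesis, and most of their transcripts are short lived. Fos and Jun proteins dimerize into the transcription factor AP-1, ATF3 belongs to the same bZIP class, Egr proteins are zinc finger factors, and Dusp1 removes phosphate from the MAP kinases that switch many of these genes on. In animal tissues these genes are also known to rise while cells are being dissociated and sorted.

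Embryos of the Tg(fli1a:EGFP)y1 line, 22 to 24 hpf old, were dissociated, their GFP+ and GFP- cells were separated by sorting, and the RNA of each was sequenced as 1 library. The GFP+ group holds cells in which the fli1a promoter drove EGFP, which the labels call endothelial cells, and the GFP- group holds all other sorted cells of the same embryos, called non-endothelial. Both groups carry the transgene and went through the same dissociation, and without undissociated embryos for comparison, transcripts present before dissociation cannot be told apart from those made during it. How many embryos were pooled is not given in the labels. The fli1a gene is known to be active in blood precursors and neural crest cells as well as in endothelium, so the gate is not limited to a single cell type.

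The GFP+ library held 4441335 counted reads and the GFP- library 4105672, so that the floor of 3 reads lies at 0.675 RPM in the former and 0.731 RPM in the latter, RPM being the reads of a gene scaled to its library. Hemoglobin transcripts took 6.60% of the GFP+ reads and 0.0579% of the GFP- reads. The sort was visible in the vascular markers, of which 17 of 17 tested were called higher in GFP+ cells, with a median log2 ratio of 5.09, also with pecam1 (0 reads in GFP- cells) set to the floor of 3 reads. For kdrl, a zebrafish VEGF receptor gene that marks endothelium, the GFP+ library held 2640 reads and the GFP- library 71, and for fli1a itself 753 and 9. All 13 tested red cell markers and 7 of 10 tested myeloid markers were also called higher in GFP+ cells, where 9.99% of all genes tested were. The endothelial genes cdh5 and tek were near the floor, with 5 and 7 GFP+ and 0 GFP- reads. With 1 library a group the difference has no replicate check. Every test below compares these libraries and not the conditions, intervals and floors cover counting error only, and fewer cells of a type cannot be told apart from less RNA per cell.

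The 9 genes together took fewer reads in GFP+ cells than in GFP- cells. They held 16481 reads in GFP+ cells, which is 0.371% of that library (exact Clopper-Pearson 95% interval 0.365% to 0.377%), and 35506 reads in GFP- cells, which is 0.865% (0.856% to 0.874%). The summed log2 ratio of GFP+ over GFP- cells was -1.22. Of the 35506 reads in GFP- cells, 33.5% belonged to fosab, and without that gene the summed log2 ratio was -0.92. All 9 log2 ratios were below 0, where 8338 of the 15252 genes tested were. The median of the 9 was -1.12, against a median of -0.11 over all genes tested. For dusp1, with 23 reads in each library, the sign depended on the scale, its ratio being 0.24 when reads were scaled to β-actin.

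A call required both an adjusted p under 0.001 (Fisher's exact test on the reads, two-sided) and a log2 ratio above 1 or under -1, with 0.5 reads added to each count. Under this rule 5 of the 9 genes were called lower in GFP+ cells (fosab, junba, egr1, egr2b and ier2) and 0 higher. Of all genes tested, 10.8% were called lower and 9.99% higher. Because the 9 were chosen with earlier results of these data known, these shares describe them and are no independent test. A further 3 genes, junbb, atf3 and jun, passed the adjusted p with a decrease of less than 2-fold. By the adjusted p alone, 8 of 9 were lower, against 18.6% of all genes. Deeply counted genes pass such a test more readily, so the calls were also read among the 1477 genes counted at least 1000 times in all, a limit chosen after the values were seen. Among these, 11.8% were called lower, and of the 7 immediate early genes at that depth 4 were. ier2, among those 4, had 1001 reads and so lay just above that limit. The rule compares counting error only. Replicates were instead assumed to vary with a coefficient of 0.4 in the exact test of edgeR (TMM scaling, adjusted p under 0.05). Then 0 of the 9 genes were called, and of the 15252 genes tested 94 were called lower and 341 higher. The lowest adjusted p of the 9 in that test was 0.0592, for egr2b.

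**Figure D1:**
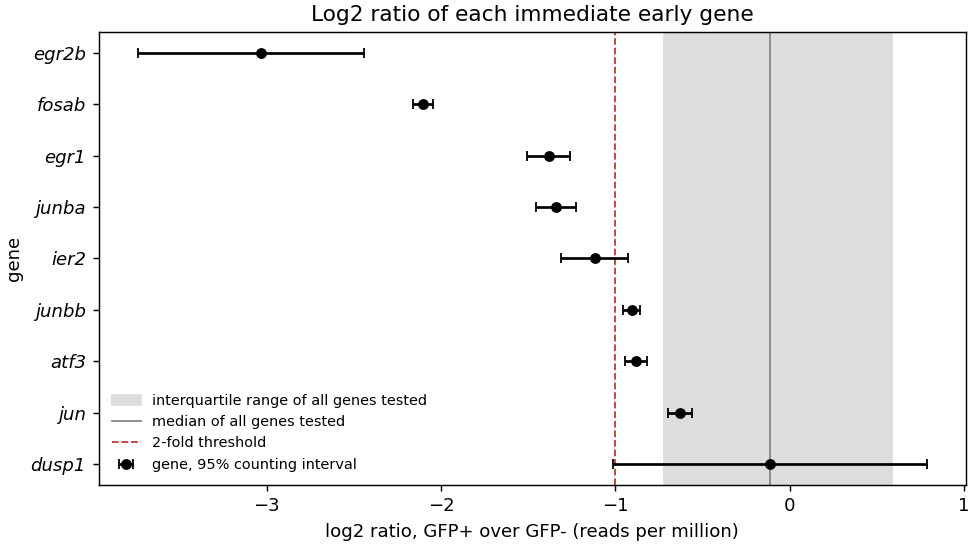
Log2 ratio of GFP+ over GFP- RPM for each of the 9 genes (points, 1 library a group) with its 95% counting interval, the median (-0.11) and interquartile range (-0.72 to 0.59) of all 15252 genes tested, and the 2-fold threshold as a dashed line. The 5 called genes lie left of the dashed line, from egr2b at -3.03 to ier2 at -1.12, junbb and atf3 lie between the line and the interquartile range, and jun and dusp1 lie within that range.

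Of the AP-1 genes, fosab, a zebrafish c-Fos gene, fell the most. It is encoded on the reverse strand of chromosome 20 (Zv9, chr20:46803308-46805437, ENSDARG00000031683) and has 1 transcript of 1699 bases in the tables. In GFP+ cells 2988 reads were counted on it, or 396 RPKM, and in GFP- cells 11885 reads, or 1704 RPKM. Its log2 ratio was -2.11 (95% interval -2.16 to -2.05), a 4.30-fold decrease, and its p in Fisher's exact test was below the smallest number the software returns. A lower log2 ratio was found for 4.14% of all genes tested, and for 33 of the 1477 genes with at least 1000 reads. Its RPKM ranked 56th of all genes in GFP- cells and 167th in GFP+ cells. The reads covered 73.6% of the transcript in the GFP+ library and 74.7% in the GFP- library.

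The 3 jun genes were all lower in GFP+ cells but by unequal amounts. Their products are the partners of Fos in AP-1, and JunB is known in mammals as a weaker activator than c-Jun at many sites. junba, on the reverse strand of chromosome 1 (ENSDARG00000074378), had 885 GFP+ and 2069 GFP- reads, or 133 and 336 RPKM. It was called lower with a log2 ratio of -1.34 (-1.45 to -1.22, adjusted p = 1.70e-127, Fisher's exact test). junbb, on the forward strand of chromosome 3 (chr3:8434976-8436624, ENSDARG00000088371), had 5127 and 8880 reads, or 700 and 1312 RPKM. Its log2 ratio of -0.91 (-0.96 to -0.86, adjusted p = 2.56e-290, Fisher's exact test) did not reach 2-fold. jun itself, on the forward strand of chromosome 20 (chr20:15558572-15560457, ENSDARG00000043531), had 3095 and 4422 reads, or 369 and 571 RPKM. Its log2 ratio was -0.63 (-0.69 to -0.56, adjusted p = 9.48e-77, Fisher's exact test), which was the smallest decrease among the 8 genes that passed the adjusted p.

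The ratio of reads between 2 genes within a library does not depend on how the libraries are scaled. By this measure junba fell further than its paralog junbb, with a difference in log2 ratio of -0.43 (95% interval of the conditional odds ratio -0.56 to -0.31). fosab fell further than its partner jun by -1.48 (-1.57 to -1.39). The balance of these 2 genes therefore differed between the libraries: fosab stood at 2.98 times the RPKM of jun in the GFP- library and at 1.07 times in the GFP+ library. It does not stand for the Fos and Jun families as a whole. These pairs were compared by counting intervals alone.

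The tables list 2 overlapping models for junba, at chr1:52226932-52228460 (1529 bases) and chr1:52227419-52228476 (873 bases). The longer one carried 849 of the 885 reads in GFP+ cells and 1972 of the 2069 in GFP- cells. The shorter one carried 36 and 97 reads. Only 48.8% and 48.9% of the longer model were covered by reads, in contrast to junbb, whose model was covered over 99.6% and 99.9%. How the counting divided reads over the shared bases of the 2 junba models is not given in the sources used here, and the log2 ratio of the gene was called lower with the longer model alone as well.

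atf3, a stress-induced bZIP factor that pairs with Jun proteins, had 3224 GFP+ and 5490 GFP- reads, or 269 and 495 RPKM. The gene lies on the forward strand of chromosome 20 (chr20:37819241-37825345, ENSDARG00000007823), the same chromosome as fosab and jun. Its log2 ratio was -0.88 (-0.94 to -0.82, adjusted p = 2.54e-171, Fisher's exact test), short of 2-fold. It did not differ from that of junbb beyond counting error, the difference of junbb minus atf3 in log2 ratio being -0.02 (-0.11 to 0.06).

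**Figure D2:**
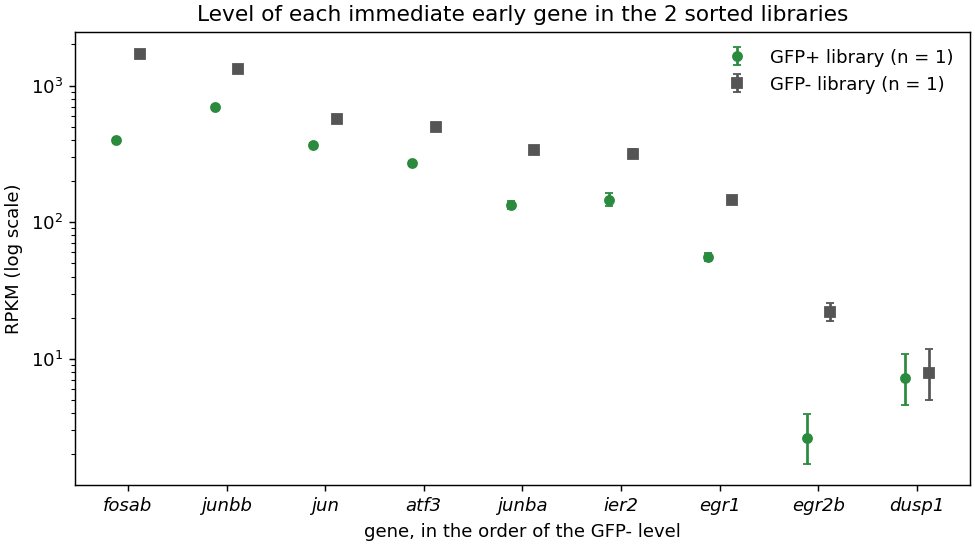
RPKM (log axis) of each gene in the GFP+ library (circles) and the GFP- library (squares), 1 library each, with 95% Poisson counting intervals, in the order of the GFP- level. The squares lie above the circles from fosab at 1704 and 396 RPKM down to egr2b at 22.1 and 2.65, and for dusp1 the intervals overlap. Such intervals narrow with depth, and the share of all genes with separate intervals was not computed.

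The Egr genes encode zinc finger factors with the same core DNA-binding domain. egr1, on the reverse strand of chromosome 14 (chr14:22333789-22337652, ENSDARG00000037421), had 782 GFP+ and 1884 GFP- reads, or 55.8 and 145 RPKM. It was called lower with a log2 ratio of -1.38 (-1.50 to -1.26, adjusted p = 6.08e-122, Fisher's exact test). Its ratio did not differ from that of junba beyond counting error (difference -0.04, interval -0.21 to 0.12).

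egr2b showed the largest decrease of the 9 genes from far fewer reads. This gene, known as krox20, is an early growth response factor that in the embryo marks rhombomeres of the hindbrain and crest cells that leave them. It lies on the reverse strand of chromosome 12 (chr12:9238040-9240532, ENSDARG00000042826), with 24 GFP+ and 185 GFP- reads, or 2.65 and 22.1 RPKM. The log2 ratio was -3.03 (-3.74 to -2.44, adjusted p = 8.64e-34, Fisher's exact test), and 1.30% of all genes tested had a lower one. The reads covered 32.4% of the transcript in GFP+ cells and 65.9% in GFP- cells. egr2b fell further than egr1 by -1.68 (-2.37 to -1.05) and further than fosab by -0.95 (-1.64 to -0.33). Markers of hindbrain and neural crest moved in the same direction. Of the 9 tested, 6 were called lower in GFP+ cells and 0 higher, where 10.8% and 9.99% of all genes tested were. The median log2 ratio of the 9 markers was -1.55, also with foxd3 set to the floor. The summed level of the 11 markers matched was 312 RPM in the GFP+ library and 747 in the GFP- library. At the ends of that list were foxd3, a neural crest factor with 0 GFP+ and 14 GFP- reads, and twist1a, a mesenchymal factor with 234 and 187 reads. Of the 11 matched, foxd3 and twist1b were at 0 in GFP+ cells. The part of these cells in the decrease of egr2b was not tested.

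ier2 encodes a small nuclear protein of the early growth factor response. The gene found by its protein name lies on the reverse strand of chromosome 11 (chr11:31914386-31914898, ENSDARG00000086881) and is named ier2b in the reference name table. No reads are given here for its copy ier2a. It had 333 GFP+ and 668 GFP- reads, or 146 and 317 RPKM. It was called lower with a log2 ratio of -1.12, although the interval of -1.31 to -0.93 contains the threshold (adjusted p = 1.90e-31, Fisher's exact test). Scaled to β-actin reads, it was -0.77 and no longer called. The model is only 513 bases long and was covered over 99.4% and 99.6%.

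dusp1, the MAP kinase phosphatase gene, was the exception, with 23 reads in both libraries, or 7.28 and 7.88 RPKM. Its log2 ratio was -0.11 (-1.01 to 0.79, adjusted p = 0.934, Fisher's exact test), and it ranged from -0.18 to 0.24 over the processing alternatives, with a positive sign when reads were scaled to β-actin. The interval contains the log2 ratio of junbb, so a decrease of that size was not detectable at this depth. The tables give dusp1 (ENSDARG00000007628, reverse strand of chromosome 14) 2 short models of 715 and 545 bases, with 45.2% and 43.9% of the longer model covered. The shorter model had 1 read in GFP+ cells and 0 in GFP- cells. The reference name table gives the human symbol of this gene to another identifier, so its reads here may not stand for the whole gene.

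The order of the 9 genes by level differed between the libraries in 3 pairs of neighbours, which exchanged places: fosab and junbb, junba and ier2, and egr2b and dusp1. By RPKM, GFP- cells ranked fosab, junbb, jun, atf3, junba, ier2, egr1, egr2b and dusp1, from 1704 down to 7.88. GFP+ cells ranked junbb, fosab, jun, atf3, ier2, junba, egr1, dusp1 and egr2b, from 700 down to 2.65. The counting intervals of junba (322 to 351 RPKM) and ier2 (294 to 342 RPKM) overlapped in GFP- cells. In GFP+ cells those of ier2 (131 to 163) and junba (124 to 142) overlapped, and those of fosab (382 to 410) and jun (357 to 383) did so at their edges. Overlap of intervals does not test a pair, so whether these neighbours were ordered beyond counting error was not tested. The intervals of fosab and junbb did not overlap in either library. Nor did those of egr2b and dusp1, at 22.1 (19.0 to 25.5) and 7.88 (4.99 to 11.8) RPKM in the GFP- library and 2.65 (1.69 to 3.94) and 7.28 (4.62 to 10.9) RPKM in the GFP+ library. That exchange rests on the model lengths, 2043 bases for egr2b and a mean of 711 for dusp1. In reads, egr2b had 24 and dusp1 23 in the GFP+ library, and 185 and 23 in the GFP- library. The short dusp1 models may not stand for the whole gene. The levels were high in both libraries for most members, and 7 of the 9 lay above 93.6% or more of all genes in the GFP+ library and above 97.4% or more in the GFP- library.

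Sorted by log2 ratio, the order was egr2b, fosab, egr1, junba, ier2, junbb, atf3, jun and dusp1. Adjacent genes differed beyond counting error for egr2b and fosab, for fosab and egr1 (-0.72, -0.86 to -0.59), for ier2 and junbb (-0.21, -0.41 to -0.01) and for atf3 and jun (-0.25, -0.35 to -0.16). They did not for egr1 and junba, for junba and ier2 (-0.22, -0.45 to 0.01), for junbb and atf3, or for jun and dusp1 (-0.51, -1.42 to 0.39). The log2 ratios of the 9 genes were thus not of a common size beyond counting error, the only error these intervals cover. For dusp1, with 23 reads in each library, no decrease was seen beyond that error.

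**Figure D3:**
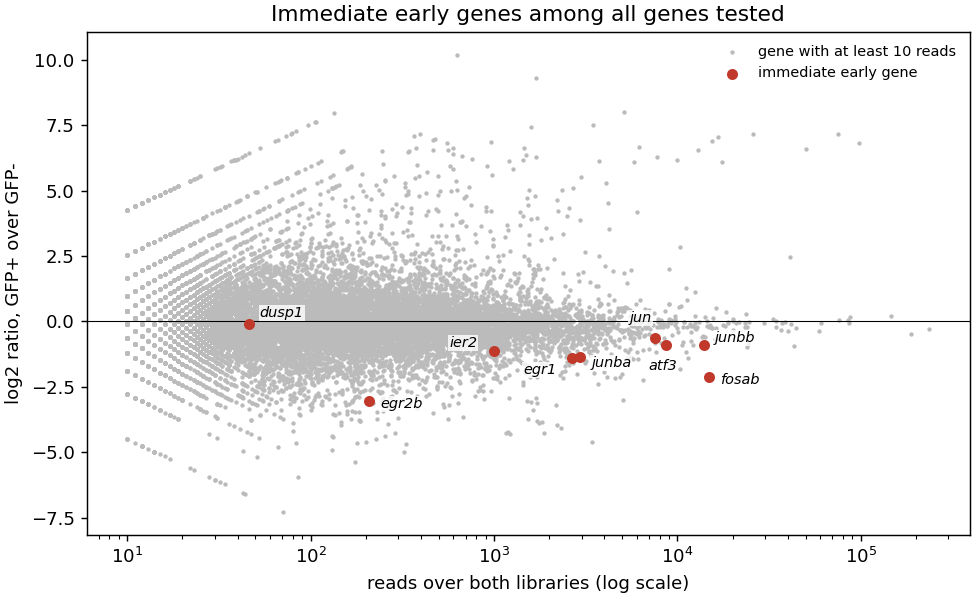
Log2 ratio of GFP+ over GFP- RPM against the reads over both libraries (log axis) for the 15252 genes tested (grey) and the 9 immediate early genes (red), 1 library a group. Of the red points, 7 lie at 1000 reads or more, and fosab at -2.11 lies below all but 33 of the 1477 genes at that depth.

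The AP-1 and ATF relatives as a list did not share the negative median of the 9 genes. Of the 20 AP-1 and ATF relatives written down, 11 could be tested, with a median log2 ratio of 0.20. Of these, 1 was called higher and 1 lower in GFP+ cells, where 9.99% and 10.8% of all genes tested were. The gene that was lower was jdp2b, a bZIP repressor of AP-1 sites that lies 32.2 kb from fosab on chromosome 20, with 361 GFP+ and 906 GFP- reads (log2 ratio -1.44, -1.62 to -1.26). The gene that was higher was atf5a, with 168 and 25 reads (2.61). The Fos relatives fosl1a, with 1422 and 1141 reads (0.20), and fosl2, with 1579 and 1030 reads (0.50), lay on the other side of 0 from fosab. Named after their values were seen, the paralogs fosaa and fosb had 651 and 900 reads (-0.58, -0.73 to -0.43) and 886 and 1207 reads (-0.56, -0.69 to -0.43). fosab therefore lay more than 1 log2 unit below the other 4 Fos genes tested. The Jun family gene jund, also named after its values were seen, had 108 and 51 reads (0.96, 0.48 to 1.48) and was not called. It lay on the other side of 0 from junba, junbb and jun. atf4a and atf4b, factors of the amino acid and unfolded protein response, had 4822 and 4874 reads (-0.13) and 5397 and 4359 reads (0.19), and the sign of atf4a changed when reads were scaled to β-actin.

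Among 39 tested genes of the wider early response, 7 were called lower and 2 higher, where 10.8% and 9.99% of all genes tested were. The median log2 ratio of the 39 was -0.33. The largest decrease was that of egr2a, the paralog of egr2b, with 40 GFP+ and 159 GFP- reads (-2.09, -2.64 to -1.60). The largest increase was that of zfp36l1b, an mRNA decay factor, with 1428 and 430 reads (1.62). The most deeply counted genes of the list were not called, among them the antiproliferative genes btg2, with 3912 and 6662 reads (-0.88), and btg1, with 2587 and 3261 (-0.45), the kinase gene pim1, with 2171 and 3524 (-0.81), and ier5, with 2403 and 3161 (-0.51). Their decreases were within the range spanned by jun and junbb or smaller. Of the list, 29 of 39 had a log2 ratio below 0, where 8338 of all 15252 genes had.

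Other dual specificity phosphatases were compared because dusp1 had so few reads. Of 15 tested, 1 was called lower and 1 higher, with a median log2 ratio of -0.21. dusp2, a nuclear MAP kinase phosphatase, had 56 GFP+ and 219 GFP- reads (-2.07, -2.53 to -1.65). dusp5, a phosphatase of ERK, had 1038 and 269 reads (1.83, 1.64 to 2.03). dusp6, the cytoplasmic phosphatase of ERK and the most deeply counted of the list, had 1495 and 1602 reads (-0.21). Over all genes tested, 10.8% were called lower and 9.99% higher, so 1 call in each direction among 15 does not set this family apart.

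Of 20 tested genes that act upstream, the kinases of the MAP kinase pathways and the SRF, ternary complex and CREB factors, 4 were called higher and 1 lower. Over all genes tested, 9.99% were called higher and 10.8% lower. The median log2 ratio of the 20 was 0.24. elk3, a ternary complex factor that is known to be expressed in endothelium, had 397 GFP+ and 53 GFP- reads (2.78, 2.38 to 3.23). map2k1, the MEK1 gene, had 136 and 269 reads (-1.09, -1.41 to -0.79). crema, a CREB family gene, had 2430 and 1239 reads (0.86), which did not reach the threshold.

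Heat shock and stress genes encode chaperones and factors that respond to damaged protein. Of 25 tested, 5 were called lower in GFP+ cells and 0 higher, where 10.8% and 9.99% of all genes tested were. The median log2 ratio of the 25 was -0.28. The largest decrease was that of hsp90aa1.1, a chaperone needed for myosin folding in muscle, with 599 GFP+ and 4450 GFP- reads (-3.01, -3.13 to -2.88). Of the most deeply counted genes, the constitutive chaperone hspa8 had 40278 and 36185 reads (0.04), hsp90ab1 had 7443 and 8075 (-0.23), hsp90aa1.2 had 7757 and 6424 (0.16) and the inducible hsp70.3 had 3754 and 3117 (0.15). At the upper end, dnajb9a had 36 and 12 reads (1.43) and was not called. Scaled to β-actin reads, the median of this list was 0.07, that of the wider early response genes 0.02 and that of the dual specificity phosphatases 0.14, so the sign of these medians depended on the scale.

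**Figure D4:**
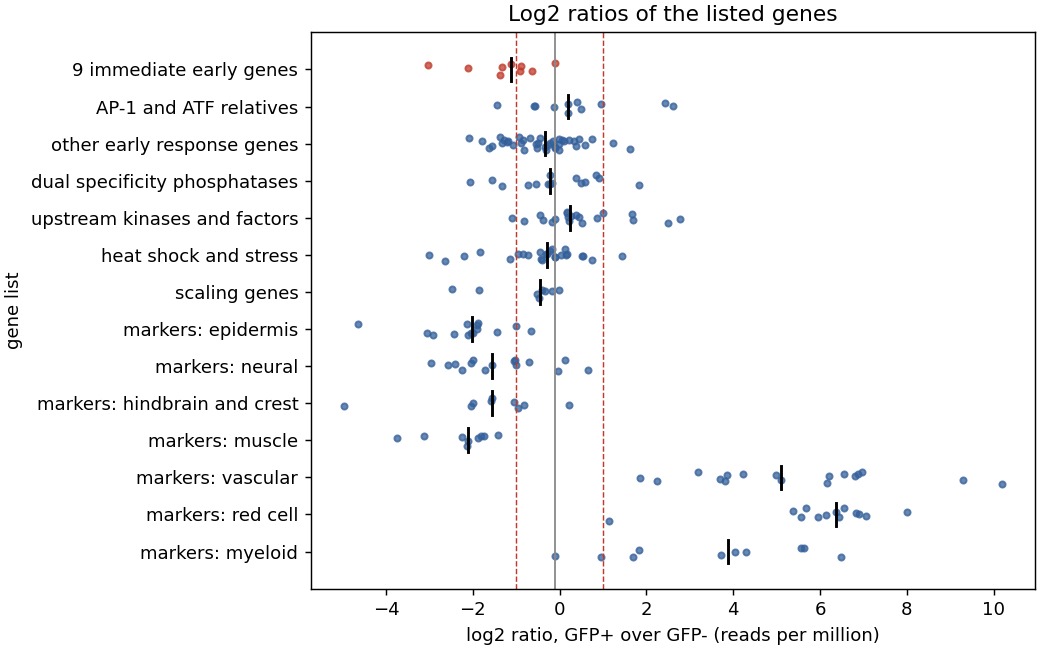
Log2 ratios of GFP+ over GFP- RPM for the 9 immediate early genes (red) and the tested genes of 13 lists (blue), 1 library a group, with the median of each list as a black bar, the median of all genes tested (-0.11) as a grey line and the 2-fold thresholds as dashed lines. The 9 genes have a median of -1.12, the related lists lie between -0.33 and 0.24, and the scaling genes lie at -0.45. The epidermal, neural, hindbrain and crest and muscle markers lie between -2.11 and -1.55.

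Markers of epidermis, neural tissue and muscle moved in the same direction as the immediate early genes. In GFP+ cells, 11 of 14 tested epidermal genes, 10 of 15 neural genes and 8 of 9 muscle genes were called lower and 0 higher. Over all genes tested, 10.8% were called lower and 9.99% higher. The median log2 ratios of these lists were -2.02, -1.56 and -2.11. Their summed levels were 2274 RPM in the GFP+ library and 5126 in the GFP- library for epidermis, 1276 and 2780 for neural genes, and 960 and 3171 for muscle. None of the matched epidermal or neural markers was at 0 in either library, and of the muscle markers tnnt3a was at 0 in GFP+ cells. The epidermal list ran from krt17 (7 and 172 reads, -4.64) to krt8 (6537 and 9553 reads, -0.66), the neural list from sox19a (107 and 775 reads, -2.96) to elavl4 (14 and 8 reads, 0.66), and the muscle list from myog (12 and 154 reads, -3.74) to smyhc1 (1639 and 4075 reads, -1.43). In the other direction, the summed level was 4034 and 236 RPM for vascular markers, 34642 and 319 for red cell markers and 334 and 31.9 for myeloid markers. Of these, pecam1, cdh5 and tek, slc4a1a, and spi1b and cybb had 0 reads in GFP- cells. The vascular list ran from etv2 (1020 and 261 reads, 1.85) to pecam1 (628 and 0 reads). The red cell list ran from hebp2 (127 and 53 reads, 1.14) to tfr1a (5121 and 18 reads), and the myeloid list from cyba (5 reads in each library) to srgn (145 and 1 reads, 6.49). The part of cell composition in the levels of the immediate early genes was not tested.

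The choice of scale mattered to the calls near the threshold. Genes often used for scaling were themselves somewhat lower in GFP+ cells, with a median log2 ratio of -0.45. Of 8 tested, 2 were called lower and 0 higher, where 10.8% and 9.99% of all genes tested were. actb1 had 27061 GFP+ and 31834 GFP- reads (-0.35), actb2 had 7 and 38 (-2.47), eef1a1l1 had 81949 and 105807 (-0.48), gapdh had 111 and 371 (-1.85) and tbp had 243 and 299 (-0.41), while sdha had 54 and 50 reads. Scaling to the reads of both β-actin genes raised every log2 ratio by 0.35 and left 3 of the 9 genes called lower, fosab (-1.76), egr1 (-1.03) and egr2b (-2.68), with junba at -0.99. Of the 15252 genes tested, 984 were called lower on that scale. Relative to the median of all genes, the ratios were -1.99 for fosab, -1.22 for junba, -0.79 for junbb, -0.51 for jun, -0.77 for atf3, -1.27 for egr1 and -2.92 for egr2b, while ier2 lay at the 2-fold threshold and dusp1 at that median.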

How the data were processed

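For each library the authors deposited a read count for each Zv9 transcript of Ensembl that had any read, its length, the coverage as the percent of that length covered by reads, and the RPKM. Recomputing RPKM from the deposited counts and lengths gave the same values. The aligner and counter are not given in the sources used here. Counts were summed over the transcripts of a gene identifier, and RPKM of a gene used the read-weighted mean length of its transcripts. Gene symbols came from RefSeq (GRCz12tu, by protein accession) and a table of gene identifiers, which named 17976 of 22017 identifiers, and coordinates are those of the deposited files.

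Genes with 10 or more reads in all were given a log2 ratio of RPM (reads scaled to the library total, 0.5 reads added) and its 95% exact Clopper-Pearson interval, and their reads were compared by Fisher's exact test (two-sided), adjusted by Benjamini-Hochberg over all 15252 genes tested. Calls needed a log2 ratio above 1 or under -1 and an adjusted p under 0.001. Pairs of genes were compared by the 95% interval of the conditional odds ratio. The procedure was tested on simulated counts with known changes and counting error alone, so variation between libraries was not part of that test. The members and lists were chosen with earlier results of these data known. Named besides the members were, in each list, the genes with the largest and smallest log2 ratio and up to 4 more with the most reads, and kdrl, fli1a and the β-actin genes. Outside this rule, and chosen after their values were seen, fosaa and fosb were named as paralogs of fosab and jund as a further Jun gene. Also outside it, cdh5, tek, slc4a1a, spi1b, cybb, twist1b and tnnt3a were named as markers with 0 reads in a library. List genes whose symbol matched no identifier were left out. The markers fli1a and pecam1 were matched through the symbols fli1 and pecam1a. The alternatives were 5 other scalings (TMM, median-of-ratios size factors, totals without hemoglobin or mitochondrial transcripts, β-actin reads), 5 reads added, the most-read transcript, no minimum or at least 50 reads, no test, a 1.5-fold threshold and the exact test of edgeR, with replicates assumed to vary with a coefficient of 0.4. Protein and promoter sequences were not analysed here. The tools were edgeR 4.0.16 and DESeq2 1.42.0 in R 4.3.3, and SciPy 1.17.1, NumPy 2.4.6, pandas 2.3.3 and matplotlib 3.10.9 in Python 3.11.15.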

Additional observations from a re-analysis of the deposited data

How the results depend on the processing

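No paired analysis was possible because GFP+ and GFP- cells gave 1 library each, and no replicate could be left out. The count of 5 immediate early genes called lower moved to 3 with reads scaled to β-actin, where 984 of the 15252 genes tested were called lower. It moved to 8 with a 1.5-fold threshold, where 2371 of all genes were. With the edgeR exact test and its assumed variation of 0.4 it moved to 0, where 94 of all genes were. It was 5 under the other 9 alternatives. No immediate early gene was called higher under any of the 12. Single members were valued under the alternatives other than no minimum of reads, at least 50 reads, no test and the 1.5-fold threshold. Of these 72 values, 65 kept their direction or their side of the threshold, and 7 lost the call. Those 7 were junba and ier2 with β-actin scaling and the 5 called genes with edgeR. Over all genes, 1524 were called higher and 1651 lower. These counts moved to 2356 and 984 with β-actin scaling, to 2469 and 2686 without a test, and to 341 and 94 with edgeR. With a 1.5-fold threshold they were 1985 and 2371. The other scalings shifted every log2 ratio by -0.01 to 0.11. The causes were not tested. Depth limits dusp1 (46 reads) and egr2b (209 reads), and the other 7 genes had at least 1000 reads. Variation between sorts cannot be estimated from these libraries.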
